A study of Mus musculus with 8 samples.

Results

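The genes described here encode the proteins of the mitochondrial ribosome, and they were taken as every gene whose symbol is Mrpl or Mrps followed by a digit. Each was read from the probe sets that the platform annotation pairs with exactly 1 gene symbol, and where a gene had several, the probe set with the highest mean stood for it. This gave 77 genes of the 19938 tested, 48 with an Mrpl and 29 with an Mrps symbol. A probe set annotated to both Mrpl53 and Ccdc142 was left out. All members are counted below, with no filter on low values. RNA was measured in whole mammary tissue of 8 virgin female mice of a C57BL/6 X FVB background, 5 weeks old, with 1 gland on each Affymetrix Gene 1.0 ST array. Every mouse carried MMTV-Cre, in which the mouse mammary tumour virus promoter drives the Cre recombinase in mammary epithelium. In 4 mice both copies of Sox9 were floxed (flox/flox), and in the other 4 mice 1 copy was floxed and the other wild type (flox/+), so that the controls also carried the recombinase and a floxed allele. The dissected piece came from the lymph node side of the fourth gland, and it held fat, stroma, vessels and immune cells beside the ducts in which the recombinase acts.

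The mitochondrial ribosome translates the few messenger RNAs made from mitochondrial DNA, all of which encode membrane subunits of the respiratory chain and ATP synthase. Its ribosomal RNAs are made inside the organelle, whereas its proteins are encoded in the nucleus, made in the cytosol and imported. Some of these proteins have counterparts in bacterial ribosomes and others are particular to mitochondria. The nuclear genes are commonly described as housekeeping genes, more active in tissues rich in mitochondria such as heart and brown fat.

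Intensities are given after quantile normalization, differences are log2 values of flox/flox less those of flox/+, given ± limma's SE, and intervals are at 95%. The median deposited intensity of an array lay between 159 and 178. Markers of the tissue were well measured: Krt8, a luminal keratin, had a mean of 2596 ± 270 (SD, n = 4) in flox/+ and 2464 ± 190 (SD, n = 4) in flox/flox glands, and Adipoq, an adipocyte hormone, had means of 5865 ± 373 and 5398 ± 355. Sox9 read 424, 448, 401 and 366 in the flox/+ glands and 298, 356, 287 and 351 in the flox/flox glands, without overlap. Its difference was -0.33 ± 0.09, with p = 0.0286 by a 2-sided exact permutation test, the smallest p that 4 against 4 arrays allow, and an adjusted p of 0.256 in the limma fit over all genes. Which part of Sox9 is removed is not given in the labels. Flox/+ replicate 2 stood apart in its 16 measured lymphocyte markers, with a summed intensity of 7076 against 1802 to 2076 in the other 7 glands. Without it the members' median difference was 0.02, with 46 above 0. In whole tissue, fewer cells of a type and less RNA per cell cannot be told apart.

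The mitochondrial ribosomal protein genes differed little between the genotypes. None of the 77 passed an adjusted p of 0.05 in limma's fit over all genes, where 0.0401% of all genes did. Their differences ran from -0.48 for Mrps6 to 0.37 for Mrpl20, and 58 of them (75.3%) lay within 0.1 of 0, as did 62.4% of all genes. The median difference was 0.02, with quartiles of -0.04 and 0.07, beside a median of -0.01 over all genes. 46 members lay above 0 and 31 below, which is 59.7% above 0, compared with 47.4% of all genes. This split was 54 to 23 in the values as deposited and 53 to 24 with median centring, where the medians were 0.05 for the members and 0.01 for all genes. At an unadjusted p under 0.05 there were 5 members, or 6.49%, against a background of 10.3% of all genes. Of these, 3 read higher in flox/flox glands (Mrpl20, Mrpl51 and Mrpl30; background 4.81%) and 2 lower (Mrps6 and Mrpl40; background 5.46%). The genotypes did not overlap for 5 members (background 5.9%), namely for 3 that read higher (Mrpl30, Mrpl36 and Mrpl33; background 2.74%) and 2 that read lower (Mrps6 and Mrpl40; background 3.16%). The share without overlap was near that of all genes. The share past the unadjusted threshold was below that of all genes in 16 of 19 alternative settings and above it in 3, with 11.7% against 10.4% for an offset of 64, 10.4% against 9.73% for values as deposited and 10.4% against 10.2% with trend and robust options.

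**Figure D1:**
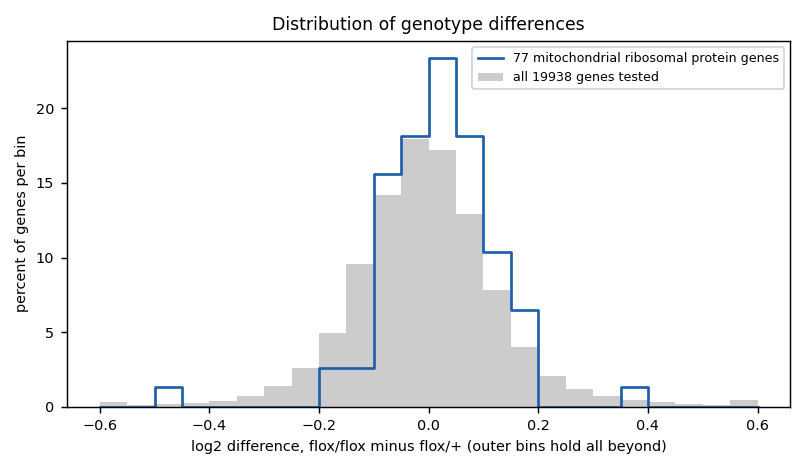
Distribution of the log2 difference (flox/flox minus flox/+, x axis) as percent of genes per bin (y axis) for the 77 mitochondrial ribosomal protein genes (blue line) and all 19938 genes tested (grey). A larger share of the members than of all genes lies within 0.1 of 0, with Mrps6 alone far to the left and Mrpl20 alone far to the right.

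The intervals show how large a difference the arrays leave room for. For 61 of the 77 members (79.2%) the whole interval lay within 0.3 of 0, which is a 1.23-fold change either way, and the same held for 61.4% of all genes. The intervals that reached farthest past that limit were those of Mrps6, Mrpl20 and Mrps10. The interval's half-width had a median of 0.17 over the members, from 0.13 to 0.41, and of 0.19 over all genes. The spread among glands of a genotype was correspondingly small, with a median pooled SD of 0.10 on the log2 scale for the members and 0.12 for all genes. A difference of 0.2 or more in either direction was measured for 2 members, Mrps6 and Mrpl20, and for 11.3% of all genes.

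**Figure D2:**
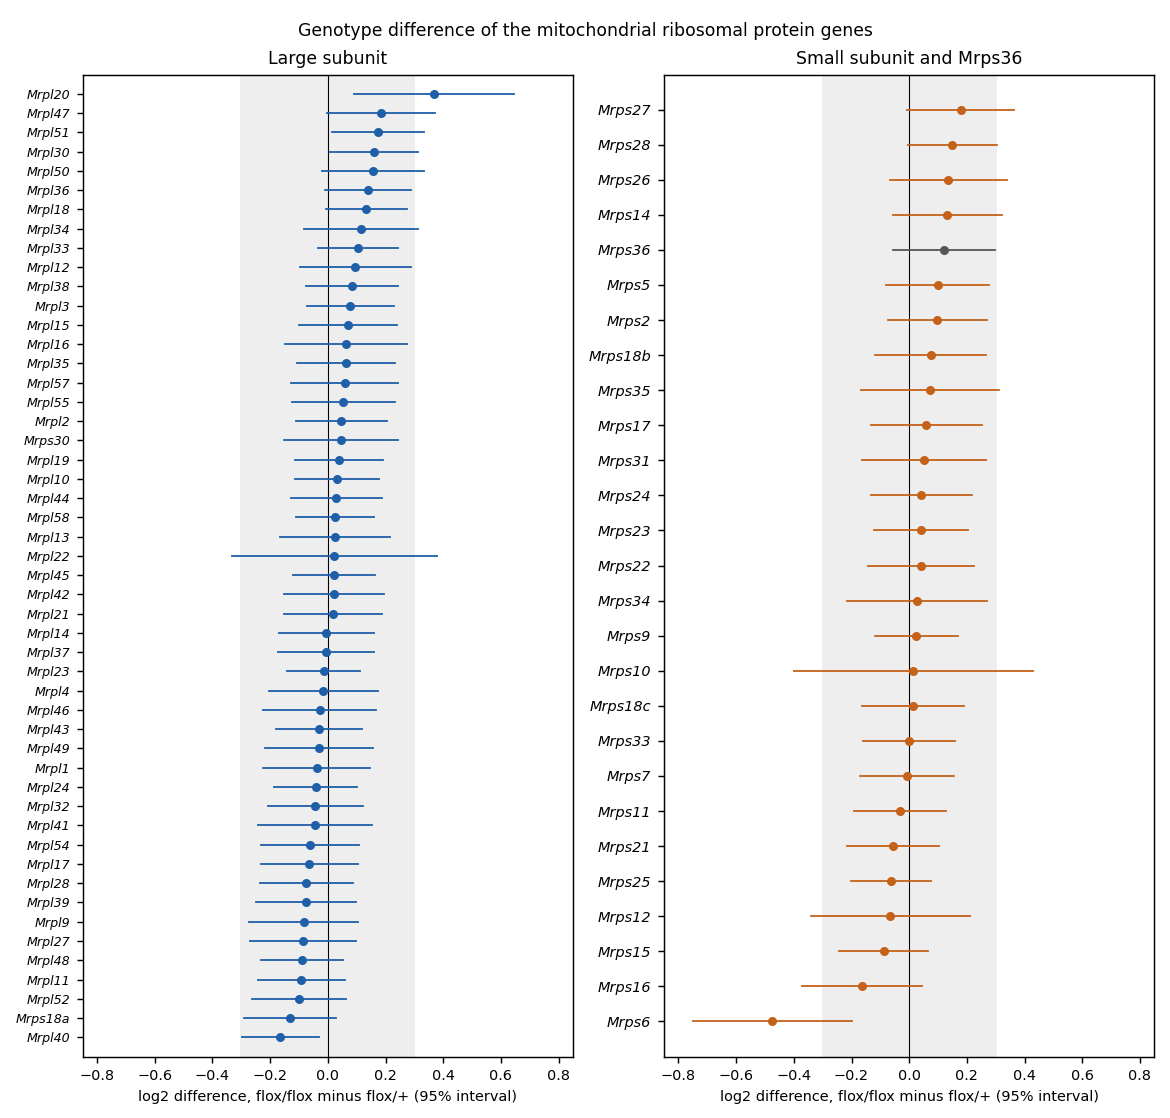
Log2 difference (flox/flox minus flox/+, x axis) of each of the 77 genes with its 95% interval from limma, 50 of the large subunit at left and 26 of the small subunit at right, together with Mrps36 in grey. The grey band marks differences within 0.3 of 0, and the points of Mrps6 and Mrpl20 are the only 2 that lie outside it.

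The 3 members with the smallest p were Mrps6, Mrpl20 and Mrpl40, and their promoters are printed for that reason. Each sequence gives the bases just before the annotated start of transcription, 5′ to 3′ on the gene's own strand, from RefSeq on GRCm38.p6. Capitals mark every match, on either strand, to a searched motif: GGGCGGGG, the GC box bound by Sp and KLF factors, in Mrps6 and Mrpl40, and CACGTG, the E-box, in Mrpl20. Mrps6 lies at chr16:92058186-92058335 on the plus strand, Mrpl20 at chr4:155802728-155802877 on the plus strand and Mrpl40 at chr16:18876638-18876749 on the minus strand. The Mrpl40 stretch is 112 bases long because the gene Hira starts on the opposite strand beyond it.
Mrps6: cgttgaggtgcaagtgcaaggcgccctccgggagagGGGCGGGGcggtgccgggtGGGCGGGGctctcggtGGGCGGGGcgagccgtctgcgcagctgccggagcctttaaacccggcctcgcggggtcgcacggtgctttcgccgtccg
Mrpl20: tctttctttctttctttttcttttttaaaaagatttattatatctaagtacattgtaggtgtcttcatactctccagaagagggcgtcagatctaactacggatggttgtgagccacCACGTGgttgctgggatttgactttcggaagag
Mrpl40: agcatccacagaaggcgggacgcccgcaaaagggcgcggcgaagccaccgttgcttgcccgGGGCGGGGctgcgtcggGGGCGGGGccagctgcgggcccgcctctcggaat
Mrps6 holds 3 GC boxes, the nearest of them 79 to 72 bases before its start, and Mrpl40 holds 2, at 51 to 44 and 34 to 27 bases. Mrpl20 holds none and has its E-box 33 to 28 bases before the start. A match describes the letters of the window and not the binding of a factor.

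Mrps6 encodes a small-subunit protein of a family shared with bacteria, where its counterpart sits on the platform of the subunit. It read 1013, 900.1, 1136 and 978 in the flox/+ glands and 545, 790, 829 and 742 in the flox/flox glands. All 4 flox/flox glands lay below the lowest control, and flox/flox replicate 1 was the lowest of all. The means were 1007 ± 98.1 (SD, n = 4) in flox/+ and 726 ± 126 (SD, n = 4) in flox/flox glands, which hold 71.9% of the control level after the log2 difference of -0.48 ± 0.12 is taken back to a fold. The interval ran from -0.75 to -0.20, and limma gave an adjusted p of 0.241. The difference kept its sign and an unadjusted p under 0.05 in 19 of 19 alternative settings, between -0.54 and -0.35, while its adjusted p stayed between 0.183 and 0.452.

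Mrps6 shares its start with Slc5a3, the sodium and myo-inositol cotransporter that brings this osmolyte into cells. The annotated starts of both genes are 14 bases apart on the same strand and their spans overlap. Among the members with a promoter window it was the only start within 100 bases of another gene's on the same strand. Slc5a3 read 848, 651, 1022 and 606 in the flox/+ glands and 435, 499, 645 and 453 in the flox/flox glands. The lowest control lay inside the flox/flox range, and in both genes the highest gland of either genotype was replicate 3. Its difference of -0.59 ± 0.17 (limma adjusted p = 0.259) lay in the same direction as that of Mrps6. The contribution of each gene's transcripts to the other's probe set was not tested.

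Mrpl40 encodes a large-subunit protein found only in mitochondrial ribosomes. It read 724, 708, 692 and 661 in the flox/+ glands and 625, 616, 600.2 and 635 in the flox/flox glands, without overlap and with little spread. The means were 696 ± 27.0 and 619 ± 14.8 (SD, n = 4 each). Its difference was -0.16 ± 0.06, or 89.2% of the control level, with an adjusted p of 0.383 in limma. Hira, a histone chaperone gene whose start lies 113 bases away on the opposite strand, had a difference of -0.0049 ± 0.06 (adjusted p = 0.991 in limma). Mrpl40 kept its sign in 19 of 19 alternative settings and an unadjusted p under 0.05 in 15 of them.

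Mrpl20 encodes a large-subunit protein whose bacterial counterpart binds the ribosomal RNA early in assembly. It read 387, 386, 531 and 363 in the flox/+ glands and 546, 596, 446 and 570 in the flox/flox glands. The genotypes overlapped, because flox/+ replicate 3 stood above flox/flox replicate 3. The means were 417 ± 77.0 and 540 ± 65.6 (SD, n = 4 each), a difference of 0.37 ± 0.12 with an interval of 0.09 to 0.64 (limma adjusted p = 0.333). The unadjusted p was under 0.05 in 19 of 19 alternatives. Without flox/+ replicate 3 the difference was 0.49 and the adjusted p 0.251.

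**Figure D3:**
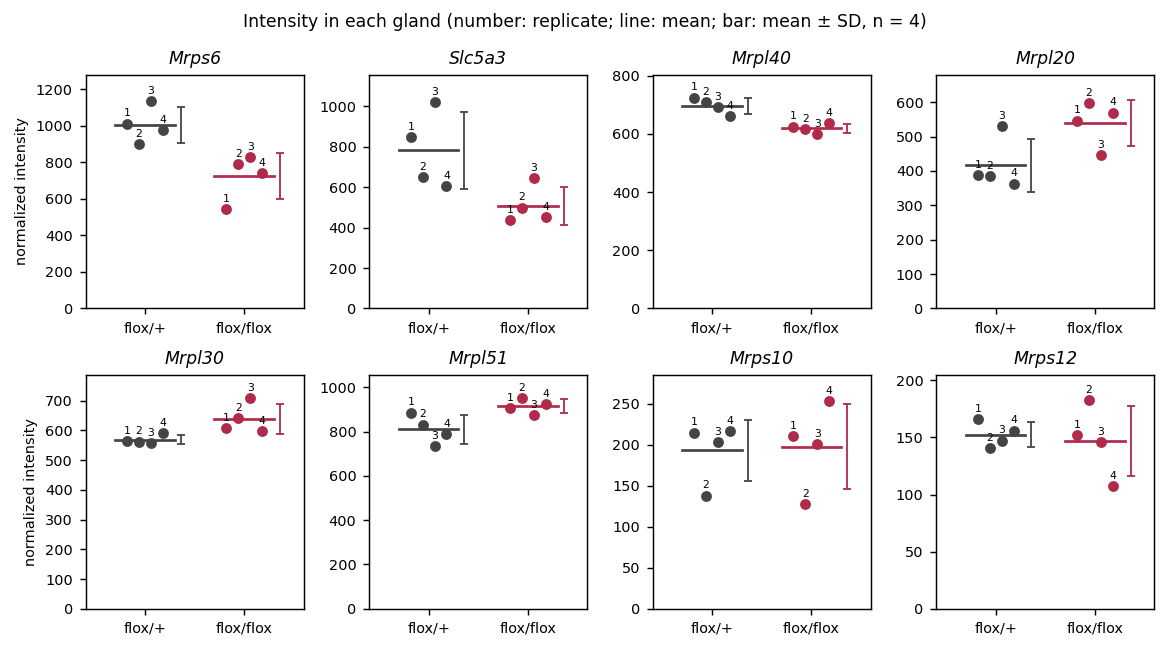
Normalized intensity (y axis) of Mrps6, its neighbour Slc5a3 and 6 further members in each gland, with the replicate number above each point, the mean as a line and the mean ± SD (n = 4) as a bar. The genotypes are separate for Mrps6, Mrpl40 and Mrpl30 and overlap for Slc5a3, Mrpl20, Mrpl51, Mrps10 and Mrps12.

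Of the other 2 members past the unadjusted threshold, Mrpl30 encodes a large-subunit protein with a bacterial counterpart. It read 564, 562, 558 and 591 in flox/+ and 608, 640.1, 707 and 598 in flox/flox glands, without overlap. Its difference was 0.16 ± 0.07 (limma adjusted p = 0.467). Its unadjusted p was under 0.05 in 13 of 19 alternatives, and in 3 of the 8 with 1 array left out. Mrpl51 encodes a large-subunit protein particular to mitochondria, and it read 887, 832, 734 and 788 in flox/+ and 906, 949.8, 875 and 926 in flox/flox glands. Its highest control lay above the lowest flox/flox gland, and its difference was 0.17 ± 0.07 (limma adjusted p = 0.455). This value depended on the probe set. The identifier of the brighter one lies among those of chromosome 2 genes, while Mrpl51 is on chromosome 6. The dimmer one, with an identifier among those of chromosome 6, had a difference of 0.04 ± 0.09 (limma adjusted p = 0.925). Without flox/+ replicate 3 the difference in the brighter one was 0.13 and no longer past the unadjusted threshold. Mrpl51 passed that threshold in 12 of 19 alternatives, and in 3 of the 8 with 1 array left out.

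Members that fell short of the unadjusted threshold in the same order of p were Mrpl47 among those higher and Mrps18a and Mrps16 among those lower. Mrpl47, a large-subunit protein of a bacterial family, read 234, 218, 188 and 225 in flox/+ and 241, 272, 253 and 224 in flox/flox glands. Flox/+ replicate 3 was the lowest of all, and the difference was 0.18 ± 0.08 (limma adjusted p = 0.491). Mrps16, a small-subunit protein with a bacterial counterpart, read 594, 647, 734 and 652 against 655, 561, 622 and 504, a difference of -0.16 ± 0.09 (limma adjusted p = 0.589). Mrpl36 and Mrpl33, small proteins of the large subunit with bacterial counterparts, did not overlap between genotypes but missed the unadjusted threshold. Mrpl36 read 378, 385, 366 and 333 in flox/+ and 388, 408, 419 and 399 in flox/flox glands (difference 0.14 ± 0.07, limma adjusted p = 0.512). Mrpl33 read 192, 195, 173 and 191 against 197, 202, 211 and 199.9 (difference 0.10 ± 0.06, limma adjusted p = 0.614).

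By role, the large and the small subunit gave nearly the same picture. The 50 proteins of the large subunit, which holds the catalytic centre, had a median difference of 0.02, with 28 above 0 and 4 past the unadjusted threshold. The 26 of the small subunit, which binds and decodes the messenger RNA, had a median of 0.03, with 17 above 0 and 1 past it. The shares past it were 8% and 3.85%, against 10.3% of all genes. Members of families shared with bacteria (48) and members particular to mitochondria (28) both had a median of 0.02, with 29 and 16 above 0. Without flox/flox replicate 2 the median was -0.0087 for the large subunit (19 above 0) and 0.0046 for the small one (14 above 0), and without flox/+ replicate 3 it was 0.0099 and -0.00044 (26 and 13 above 0). Mrps18a and Mrps30 carry small-subunit symbols but are known as proteins of the large subunit and were counted there. Mrps36 was counted in neither, since its product is now regarded as a component of the oxoglutarate dehydrogenase complex, and its difference was 0.12 ± 0.08 (limma adjusted p = 0.649).

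The stalk of the large subunit, which recruits translation factors, is built on Mrpl10 and Mrpl11 and carries Mrpl12, a protein also known to bind the mitochondrial RNA polymerase. Mrpl12 had means of 452 ± 42.1 in flox/+ and 484 ± 40.4 in flox/flox glands (SD, n = 4 each), a difference of 0.10 ± 0.09. Mrpl10 differed by 0.03 ± 0.07 and Mrpl11 by -0.09 ± 0.07, and limma's adjusted p was at least 0.688 for all 3. Mrpl45, which holds the ribosome at the inner membrane where its products are inserted, read between 322 and 357 over all 8 glands and differed by 0.02 ± 0.06. Mrps12, a protein of the decoding centre, differed by -0.07 ± 0.12, with a wide range of 107 to 182 among the flox/flox glands. Mrps30 differed by 0.05 ± 0.09.

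The 3 paralogs of the Mrps18 family occupy different places in the ribosome, Mrps18a in the large and Mrps18b and Mrps18c in the small subunit. Mrps18a read 487, 480.3, 422 and 488 in flox/+ and 438, 411, 454 and 404 in flox/flox glands. Its genotypes overlapped only through flox/+ replicate 3, and the difference was -0.13 ± 0.07 (limma adjusted p = 0.568). Mrps18b differed by 0.07 ± 0.09 and Mrps18c by 0.01 ± 0.08 (limma adjusted p = 0.819 and 0.976). Their differences from Mrps18a were not tested.

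Mean intensity over the 8 glands ran from 73.9 for Mrpl22 to 1200 for Mrpl42, but levels of different probe sets cannot be ranked against each other. At the bright end stood Mrpl42, Mrps21, Mrps18c, Mrpl39 and Mrpl18, whose differences lay between -0.08 and 0.13. At the dim end stood Mrpl22, Mrps12, Mrpl54, Mrpl33 and Mrps10, with differences between -0.07 and 0.10. The members with the widest spread among glands of a genotype were Mrps10, Mrpl22, Mrps12 and Mrps6. Mrps10 read 215, 138, 204 and 217 in flox/+ and 210.2, 127, 201 and 253 in flox/flox glands, low in replicate 2 of both genotypes, so that its interval reached from -0.40 to 0.43. Mrpl22 read 54.9, 65.6, 94.7 and 77.2 against 51.9, 91.2, 85.8 and 69.8, and its difference was 0.02 ± 0.16.

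In some glands many of the members deviated in the same direction, most of all in flox/flox replicate 2 and flox/+ replicate 3. For each gland the median over the members of the log2 deviation from the gene's mean was taken. It was 0.04, -0.0091, -0.07 and 0.02 in flox/+ replicates 1 to 4 and -0.0049, 0.09, 0.01 and -0.05 in flox/flox replicates 1 to 4. Flox/flox replicate 2 was the highest of the 8 glands for 34 of the 77 members, where it was highest for 15.6% of all genes. Flox/+ replicate 3 was the lowest for 25 members, where it was lowest for 12.3% of all genes. The quartiles of the members' deviations were -0.11 and -0.00013 in flox/flox replicate 4 and -0.01 and 0.10 in flox/+ replicate 1. The genotypes overlapped in the median deviation and in the summed intensity of the members (33893 to 36687 in flox/+ and 34240 to 37540 in flox/flox glands). The median difference depended on single glands, in both directions. Without flox/flox replicate 2 its sign turned, to -0.0078 with 34 of 77 members above 0. Without flox/+ replicate 3 it kept its sign but was 0.0025, with 40 above 0. It rose to 0.04 without flox/flox replicate 4 (51 above 0), flox/+ replicate 4 (49) or flox/+ replicate 1 (47). With any of the remaining glands left out it was 0.02.

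**Figure D4:**
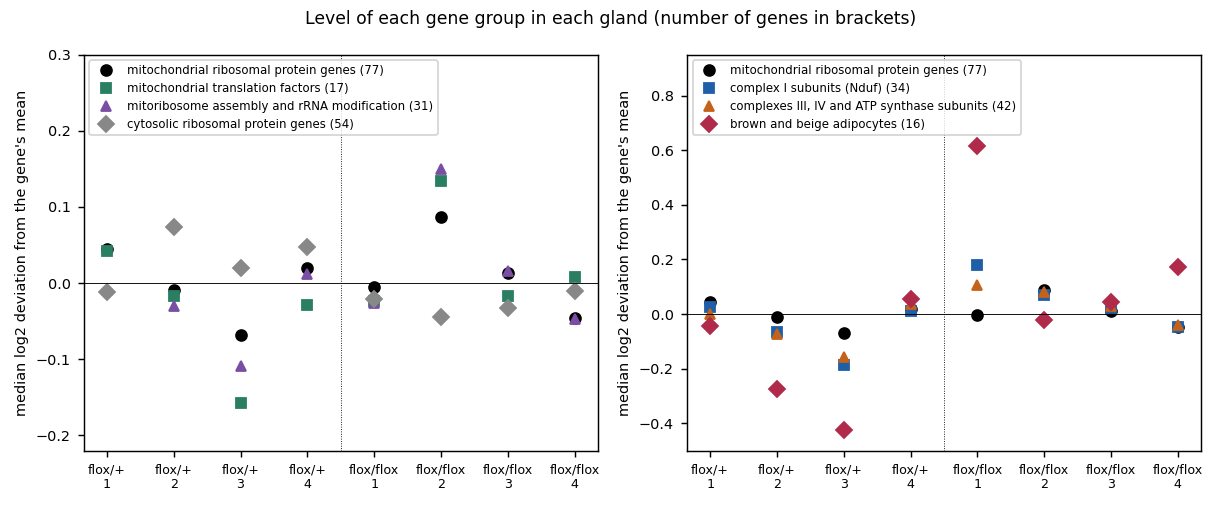
Median log2 deviation from each gene's mean over the 8 glands (y axis) in each gland (x axis), for the mitochondrial ribosomal protein genes in both panels, for other translation genes at left and for respiratory chain genes and brown and beige fat markers at right. The members have their lowest point in the third flox/+ gland and their highest in the second flox/flox gland, and the fat markers are highest in flox/flox replicate 1 (0.62).

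Several other gene lists were set beside this order of glands. In flox/+ replicate 3 the median deviation was also low for mitochondrial translation factors (-0.16), for assembly factors (-0.11), for complex I subunits (-0.19) and for brown and beige adipocyte markers (-0.43). It was high in that gland for fibroblast markers (0.19) and macrophage markers (0.19). In flox/flox replicate 2 the median deviation was high for translation factors (0.13), assembly factors (0.15) and white adipocyte markers (0.18). There it was low for fibroblast markers (-0.29) and macrophage markers (-0.26). Not every list followed the members: brown and beige markers stood at -0.02 in flox/flox replicate 2, and complex I subunits at 0.07 there but at 0.18 in flox/flox replicate 1, their highest gland. The summed intensity of the 16 brown and beige markers measured ran from 7045 to 12040 in flox/+ and from 9843 to 17098 in flox/flox glands, that of the 15 white adipocyte markers from 76582 to 85842 and from 75496 to 87741, and that of the 14 fibroblast markers from 53092 to 67744 and from 47658 to 60039. Ucp1, the uncoupling protein of brown fat, had means of 2087 ± 1026 in flox/+ and 3086 ± 1263 in flox/flox glands (SD, n = 4 each). Of the brown and beige markers 12 lay above 0 and 8 (50%, against 10.3% of all genes) passed the unadjusted threshold. All 8 of these markers were higher, led by Elovl3, a fatty acid elongase (1.94 ± 0.47, limma adjusted p = 0.212). Their part in the order of glands was not tested.

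Of the genes that work with the mitochondrial ribosome, no list had a member past the adjusted threshold in limma's fit. The 5 ribosomal proteins and partners under other symbols had a median of 0.08 with 4 above 0. Among them Ptcd3, a small-subunit protein, differed by 0.15 ± 0.07, Gadd45gip1, a large-subunit protein, by 0.08 ± 0.06, and Oxa1l, the insertase that receives the new chains, by 0.08 ± 0.07. The 31 genes of ribosome assembly and rRNA modification had a median of 0.05 with 24 above 0, and 3 of them were past the unadjusted threshold as higher and 1 as lower. Fastkd1, an RNA-binding protein of the organelle, differed by 0.28 ± 0.08, and Ngrn, part of an assembly module, by 0.15 ± 0.07. Rpusd4, a pseudouridine synthase acting on the ribosomal RNA, differed by -0.17 ± 0.07. The list of 17 translation factors also held Tmem70, Coa3 and Cox14, genes for the assembly of ATP synthase and complex IV. Its median was 0.06 with 14 above 0 and 1 past the unadjusted threshold. That 1 was Gfm1, the elongation factor that moves the ribosome along the message, at 0.23 ± 0.08 (limma adjusted p = 0.362). The shares past that threshold were 12.9% of the assembly genes and 5.88% of the translation factors, against 10.3% of all genes.

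A list of 21 genes held the synthetases that charge mitochondrial transfer RNAs. It also held Qrsl1, Gatb and Gatc, subunits of an amidotransferase and not synthetases, and the whole list is called the synthetases below. Its median was 0.04 with 14 above 0, and 1 passed the unadjusted threshold, Ears2 for glutamate (0.16 ± 0.06). The 17 genes of mitochondrial DNA transcription and maintenance had a median of 0.04 with 14 above 0. Of these, 2 passed the unadjusted threshold: Trmt10c, a subunit of the enzyme that cuts transfer RNAs out of the primary transcript (0.28 ± 0.08, limma adjusted p = 0.249), and Tfb2m, a transcription factor of the organelle (0.19 ± 0.08). The 17 regulators of mitochondrial biogenesis had a median of 0.05 with 11 above 0. Ppargc1a, the coactivator that drives biogenesis and also a brown fat marker, differed by 0.39 ± 0.15 and Nrip1, a corepressor, by -0.29 ± 0.11, both past the unadjusted threshold, with adjusted p = 0.409 and 0.410 in limma. Single glands weighed on these medians: without flox/flox replicate 2 they were 0.0028 for the assembly genes and -0.02 for the synthetases, and without flox/+ replicate 3 they were 0.02 for the assembly genes, 0.03 for the translation factors, 0.01 for the synthetases, 0.02 for transcription and maintenance and 0.01 for the regulators. Without flox/flox replicate 1 the median of the regulators was -0.01, with 8 of 17 above 0. Past the unadjusted threshold were 4.76% of synthetases, 11.8% of transcription and maintenance genes and 11.8% of regulators, against 10.3% of all genes.

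The respiratory chain, whose assembly needs the products of this ribosome, was measured on the same arrays. The 34 nuclear complex I subunits had a median difference of 0.10 with 28 above 0 and 6 past the unadjusted threshold, all higher. The 42 subunits of complexes III and IV and of ATP synthase, of which Cox7a1 and Cox8b are also brown fat markers, had a median of 0.09 with 34 above 0 and 9 past it, all higher. The shares past the unadjusted threshold were 17.6% and 21.4%, against 10.3% of all genes. Without flox/+ replicate 3 both medians were 0.05. The members' median of 0.02 was smaller than either, and that contrast was not tested. COX2 and ND3, which are mitochondrial messenger RNAs translated by this ribosome and were the only 2 measured under such symbols, differed by 0.02 ± 0.06 and -0.02 ± 0.06. Quantile normalization sets every value by its rank within the array. COX2 was among the brightest probe sets and read the same 12719 in flox/+ replicates 3 and 4 and in flox/flox replicate 3. Its difference is uncertain for that reason. The 54 proteins of the cytosolic ribosome lay on the other side of 0, with a median of -0.07 and 7 above 0 (-0.04 and 11 for values as deposited and with median centring, and -0.05 and 14 without flox/+ replicate 2), though 0 of them passed the unadjusted threshold in limma. Cytosolic ribosomal protein genes have many near-identical copies, and their values are uncertain for that reason.

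Some members were read by more than 1 probe set or by a probe set of uncertain origin. For 8 members 2 probe sets carried the symbol alone, and they differed in sign for Mrpl27, Mrpl41 and Mrpl47. Mrpl47 had 0.18 ± 0.08 in the brighter and -0.17 ± 0.09 in the dimmer probe set. Mrpl27 had -0.09 ± 0.08 and 0.07 ± 0.13, and Mrpl41 -0.04 ± 0.09 and 0.04 ± 0.07. Identifiers on this array run along the chromosomes, and 96.8% of probe sets lie among identifiers of their own gene's chromosome. The brighter probe sets of Mrpl27, Mrpl41, Mrpl51 and Mrps33 and the only one of Mrpl48 lie among those of another chromosome, which leaves their values uncertain where a near-identical copy exists. With the dimmer probe set of the first 4 genes in place of the brighter, the median over the members was 0.03 and 4 passed the unadjusted threshold, Mrpl51 no longer among them.

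The members shared features of their promoters that the choice by symbol did not use. RefSeq windows of 300 bases, from 250 before to 50 after the start, were at hand for 68 of the 77 genes. Their 74 windows had a median GC content of 58.5%, against 52.7% for all windows of the same length, and a median of 21 CpG dinucleotides against 7. Both backgrounds hold the windows of all genes, tested or not, and were not taken for the tested genes alone. The motif CCGGAAG, which ETS factors bind, occurred on either strand in 25 of 68 members (36.8%), in 13.6% of the tested genes with a window and in 8.86% of all windows. AAGATGGC, the motif of YY1, occurred in 12 members (17.6%), 3.77% of tested genes and 2.75% of all windows. The motif made of GCGC, any 2 bases and GCGC, a form of the site of NRF1, a regulator of nuclear genes for mitochondrial proteins, occurred in 14 members (20.6%), 10.5% of tested genes and 6.23% of all windows.

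The remaining motifs were no more frequent in the members than in the tested genes. GGGCGGGG was found in 16 members (23.5%) and in 28.2% of tested genes, and in 17.6% of all windows. CCAAT was found in 26 members (38.2%) and 41.7% of tested genes (37.4% of all windows), CACGTG in 5 members (7.35%) and 9.50% of tested genes (7.15% of all windows), and TATAAA in 5 members (7.35%) and 13.6% of tested genes (13.6% of all windows). TCAAGGTCA, the long form of the site of estrogen-related receptors, was found in 0 of 68 windows of members and in 0.346% of tested genes, or 0.423% of all windows. Matches to different motifs overlapped in 0 of the 74 windows of members. Mrpl12, at chr11:120484487-120484636 on the plus strand, and Mrps18a, at chr17:46110854-46111003 on the plus strand, are printed as examples chosen after their values were seen, with the NRF1 and the ETS motif in capitals.
Mrpl12: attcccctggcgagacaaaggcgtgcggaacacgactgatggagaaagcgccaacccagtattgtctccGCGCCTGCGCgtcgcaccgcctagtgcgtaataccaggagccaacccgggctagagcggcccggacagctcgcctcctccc
Mrps18a: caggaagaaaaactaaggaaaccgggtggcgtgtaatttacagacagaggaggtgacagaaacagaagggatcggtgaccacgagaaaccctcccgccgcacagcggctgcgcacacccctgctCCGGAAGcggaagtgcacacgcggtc
The NRF1 motif lies 81 to 72 bases before the start of Mrpl12, and the ETS motif 26 to 20 bases before that of Mrps18a.

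**Figure D5:**
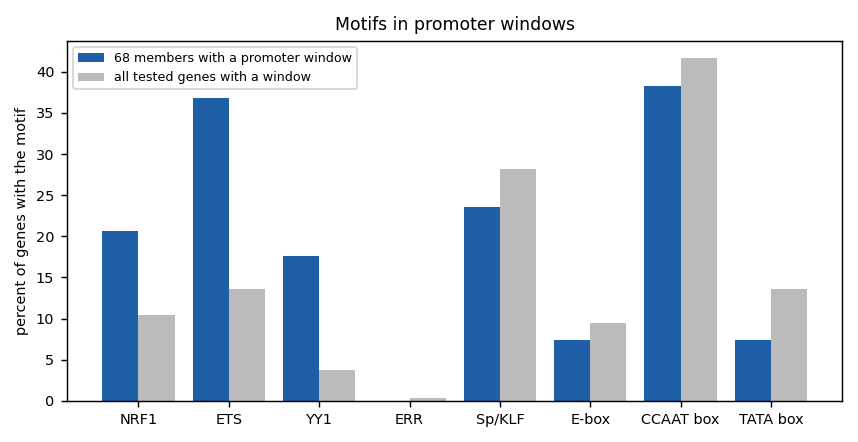
Percent of genes (y axis) whose promoter window holds each motif (x axis), for the 68 members with a window (blue) and all tested genes with a window (grey). ETS, YY1 and NRF1 motifs are more frequent in the members (36.8%, 17.6% and 20.6%) than in the tested genes.

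Members with and without these motifs differed little in their response. The median difference was 0.02 in the 25 members with the ETS motif and 0.02 in the 43 without it. It was 0.0086 in the 14 with and 0.02 in the 54 without the NRF1 motif, and -0.0067 in the 12 with and 0.02 in the 56 without the YY1 motif. The 12 members with the YY1 motif included 0 of the 5 past the unadjusted threshold, and the 16 with the GC box included 3 of them. The 52 without the GC box included 2. Over all genes 10.3% passed that threshold, and counts this small were not tested for a link to a motif. Among the 3 was Mrpl51, which passed it only in the probe set with an identifier among those of chromosome 2.

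Many of the members start close to a neighbour on the opposite strand. A protein-coding gene started within 1000 bases and in the other direction for 24 of the 68 members (35.3%), and for 8.48% of the 17492 protein-coding genes with a window. Mrpl46 and Mrps11, a large- and a small-subunit gene, start 42 bases apart from each other, and both differed by -0.03. Other partners also work in mitochondria: Twnk, the helicase of mitochondrial DNA, beside Mrpl43, the seryl-tRNA synthetase Sars2 beside Mrps12, and the complex I subunit Ndufb5 beside Mrpl47. Among the 23 partners that were measured, 3 passed the unadjusted threshold in limma, where 10.3% of all genes did. Ncapd2, a condensin subunit 614 bases from Mrpl51, differed by -0.40, and Ska3, a kinetochore protein 76 bases from Mrpl57, by -0.32. Both are genes of cell division, and their partners Mrpl51 and Mrpl57 differed by 0.17 and 0.06. For Mrpl51 the dimmer probe set, with an identifier among those of its own chromosome, had a difference of 0.04. Cyb5rl, 128 bases from Mrpl37, differed by 0.14, and Mrpl37 by -0.007.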

How the data were processed

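Total RNA of 8 mammary glands was hybridised to Affymetrix Gene 1.0 ST arrays. The authors deposited linear intensity values, and PLIER and Affymetrix Expression Console 1.0 are the tools that the submitters' processing notes name. How background and arrays were corrected before deposit is not given in the sources used here, and no detection calls were used. The table holds 35557 probe sets, of which 21789 had 1 gene symbol, 1621 several and 12147 none in the platform annotation. Of the first, 21698 matched RefSeq on GRCm38.p6, which changed 0 symbols. All 8 columns matched a sample, and 0 did not.

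Values were offset by 16, taken to log2 and quantile normalized over the whole table, since the arrays' 10th, 50th and 90th percentiles spread by 0.21, 0.10 and 0.11. The brightest probe set stood for each of 999 genes with several, and 19938 genes were fitted with lmFit and eBayes of limma 3.58.1 (R 4.3.3), with Benjamini-Hochberg adjustment over all of them. The scripts were tested on simulated data. Each gland is 1 mouse, and the number of arrays limits precision. No pair of arrays was identical, with median absolute log2 differences of 0.10 to 0.16.

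The members, gene lists and tests were chosen with earlier results of these data known. Members are named when past the adjusted threshold, when among the 4 of smallest p in each direction, for the 5 highest and 5 lowest levels, for the 4 widest spreads, for probe sets that differ in sign, for 1 array that stands apart, or for their role. From other lists the 3 genes of smallest p could be named. Genes that a list holds beside those of its main role are named without values. Genes added after their values were seen are Mrpl36, Mrpl33, Slc5a3, Hira, COX2, ND3, Krt8, Adipoq, Ucp1 the promoter partners and their members, and the members whose probe sets lie among another chromosome's. The luminal list (21 measured, 8 above 0, 1 past the unadjusted threshold), basal list (15, 9 and 2), lymphocyte list (16, 2 and 0), macrophage list (12, 5 and 2), endothelial list (14, 6 and 1) and muscle list (16, 4 and 1) were also summarised. Over all genes 47.4% lay above 0 and 10.3% passed that threshold. With 1 array left out the members above 0 ranged from 6 to 14, 6 to 12, 1 to 11, 3 to 6, 4 to 9 and 3 to 5 in these lists. The luminal median turned from -0.04 to 0.05 without flox/flox replicate 1, and the lymphocyte median from -0.27 to 0.08, with 11 of 16 above 0, without flox/+ replicate 2. With 1 array left out the medians ran from -0.03 to 0.16 for the basal list, -0.14 to 0.02 for the macrophage list and -0.07 to 0.07 for the endothelial list. Alternatives were a replicate block, no normalization, median centring, an offset of 1 or 64, leaving out the dimmest genes (the lowest 1 in 3 by mean level), the mean over probe sets, all probe sets, trend and robust options, array weights, each array left out, and, chosen after seeing the data, probe sets placed on the gene's chromosome. Motifs were counted by exact letters on both strands.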

Additional observations from a re-analysis of the deposited data

Results flagged for a closer look

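Within each genotype the highest or lowest gland of every member was compared with the rest by the ratio of its gap to the whole range, with Dixon's critical value of 0.829 for 4 samples. Of 154 groups of 4 glands 7 stood out, and chance flags about 1 in 20 groups. Mrpl20 read 531 in flox/+ replicate 3, against 362.9 to 387.1 in the other controls. The same gland was the lowest control for Mrps18a, with 422 against 480.3 to 487.7, and for Mrps2, with 420 against 467.5 to 468.4. Flox/flox replicate 2 was the highest of its genotype for Mrpl37, with 497 against 428.9 to 439.7, and the lowest for Mrpl41, with 338 against 371.4 to 376.4. Mrps10 read 138 in flox/+ replicate 2, against 203.7 to 217.1. Mrps34 read 523 in flox/flox replicate 4, against 598.2 to 605.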

How the results depend on the processing

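The count of members with an adjusted p under 0.05 was 0 in limma's fit and in all 19 alternatives, with 5 at an unadjusted p under 0.05. The median difference of the members, 0.02, moved by less than the spread between glands in every alternative, from -0.0078 without flox/flox replicate 2 to 0.05 for values as deposited, where 54 members lay above 0 and the median of all genes was 0.01. The members higher at an unadjusted p under 0.05, 3 in number, were 7 for values as deposited, 5 with median centring, 7 with an offset of 64, 6 without the dimmest genes (76 members left) and 6 with trend and robust options. Members past it in either direction were then 10.4%, 7.79%, 11.7%, 10.5% and 10.4%, against 9.73%, 9.73%, 10.4%, 11.6% and 10.2% of all genes. With 1 array left out the higher members were 1 to 6, with 1 when either flox/flox replicate 2 or flox/+ replicate 3 was dropped and 6 without flox/+ replicate 1. Members past the unadjusted threshold in either direction were then 3.9% to 9.09%, against 8.22% to 10.7% of all genes. They were 3.9% against 8.67% without flox/flox replicate 2 and 5.19% against 8.22% without flox/+ replicate 3. With the replicate block they were 3.9% against 9.46%. The 2 lower members became 1 with the replicate block, for values as deposited and with median centring, and 1 to 3 with 1 array left out, with 1 when flox/+ replicate 1 was dropped and 3 when flox/+ replicate 3 or flox/flox replicate 1 was. The count of genes over the whole array with an adjusted p under 0.05, 8, became 18 with median centring, 4 with an offset of 1, 19 with an offset of 64, 3 without the dimmest genes, 1 over all probe sets, 17 with trend and robust options and 2 to 19 with 1 array left out. Mrpl27 was 0.07 from the probe set placed on its chromosome. The causes of these shifts were not tested. Correlations of the deviations between flox/+ and flox/flox glands of the same replicate number were -0.20, 0.06, 0.21 and -0.09. Those between glands of different number ran from -0.22 to 0.21. With 4 glands a genotype these values cannot decide whether the glands were paired. With the replicate block the median difference stayed at 0.02 and 1887 genes had an unadjusted p under 0.05, against 2049. With 4 glands a genotype the arrays cannot resolve differences much under 0.17 on the log2 scale, the median half-width of the members' intervals, and dim members such as Mrpl22 allow less.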
